A study of Mus musculus with 7 samples.

Results

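The genes described here are 34 chaperone and folding genes of the mouse macrophage-like line RAW264.7, chosen by symbol from the 55417 genes of the count table. They form 2 classes. The endoplasmic reticulum (ER) class holds 19 genes for folding, disulfide formation and degradation in the ER. The heat shock class holds 15 genes for cytosolic and mitochondrial chaperones, their partners and the transcription factor Hsf1. RNA was sequenced from cells carrying a short hairpin RNA against Dpep2, which encodes a membrane-bound dipeptidase, or a control hairpin. There were 2 libraries with hairpin shDpep2.968, 2 with hairpin shDpep2.759 and 3 with the control hairpin shNT, all from the same cell line with no other agent in the labels. The labels do not say how the hairpins were delivered, whether cells were pooled or clonal, or whether replicates were separate cultures. The p-values therefore measure only the spread between these libraries, which may be technical.

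Proteins that enter the ER are folded there by the HSP70-type chaperone encoded by Hspa5, by the lectin chaperones calreticulin and calnexin, and by protein disulfide isomerases, while misfolded ones are handed to a degradation system built around Sel1l and Syvn1. When unfolded proteins accumulate, the unfolded protein response raises many of these genes through ATF6 and the spliced form of Xbp1, which bind DNA elements in their promoters. In the cytosol and nucleus the heat shock response, driven by HSF1, raises HSP70, HSP90 and their J-protein partners through heat shock elements. Both responses are known in macrophages, whose secretory load grows with activation.

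The promoter elements of the members are shown first because the ER stress elements were found in genes of the ER class and the heat shock element in genes of the heat shock class. RefSeq windows (build GRCm38.p6) running from 250 bases before to 50 bases after a transcription start were given for 28 of the 34 members, in 34 windows. Manf, Hyou1, Hspa8, Hsp90aa1, Hsp90ab1 and Hsf1 had none. Each window was searched on both strands for the ER stress element ERSE (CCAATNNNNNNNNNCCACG), ERSE-II (ATTGGNCCACG), the unfolded protein response element UPRE (TGACGTGG) and a heat shock element HSE of 3 alternating units (GAANNTTCNNGAA). ERSE was found in 8 of the 17 ER genes with a window, and in 39 of all 32851 windows of the same length (0.119%). ERSE-II was found in 2 further ER genes, and in 12 of all windows (0.0365%). Neither was found in the 11 heat shock genes with a window. In the sites below the matched letters are in capitals with 8 bases on either side, and each is written 5′ to 3′ on the strand that matches.
Hspa5 ERSE chr2:34772017-34772051 (+ strand): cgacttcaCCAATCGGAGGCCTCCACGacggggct
Hsp90b1 ERSE chr10:86705525-86705559 (+ strand): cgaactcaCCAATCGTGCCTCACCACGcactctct
Hsp90b1 ERSE chr10:86705630-86705664 (- strand): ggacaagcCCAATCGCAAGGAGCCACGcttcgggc
Dnajc3 ERSE chr14:118937819-118937853 (+ strand): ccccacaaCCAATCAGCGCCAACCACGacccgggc
Pdia6 ERSE chr12:17266483-17266517 (+ strand): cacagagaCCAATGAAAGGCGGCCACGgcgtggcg
Calr ERSE chr8:84847067-84847101 (+ strand): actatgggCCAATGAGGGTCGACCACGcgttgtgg
Canx ERSE chr11:50325792-50325826 (- strand): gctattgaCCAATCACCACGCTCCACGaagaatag
Creld2 ERSE chr15:88819512-88819546 (- strand): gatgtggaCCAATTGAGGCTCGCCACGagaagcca
Syvn1 ERSE chr19:6046524-6046558 (+ strand): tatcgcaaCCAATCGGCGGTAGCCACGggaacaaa
Dnajb11 ERSE-II chr16:22857844-22857870 (+ strand): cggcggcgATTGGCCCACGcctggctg
Herpud1 ERSE-II chr8:94386369-94386395 (+ strand): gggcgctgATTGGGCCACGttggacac

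The Hsp90b1 window carried 2 matches, on opposite strands. HSE was found in 3 of the 11 heat shock genes, or 4 of their 17 windows, and in no ER gene, against 198 of all windows (0.603%). The Hsph1 windows hold the same site. Only exact matches to the letters were sought, so elements that depart from them were missed. UPRE was found in no member window, against 222 of all windows (0.676%). Hspd1 and Hspe1, which encode the mitochondrial chaperonin HSP60 and its lid HSP10, are transcribed away from each other, and their windows share the same overlapping pair of HSE matches.
Hsph1 HSE chr5:149636280-149636308 (+ strand): actgaggaGAACTTTCCAGAAtctgcagc
Hspe1 HSE chr1:55088051-55088079 (- strand): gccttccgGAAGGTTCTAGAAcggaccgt
Hspe1 HSE chr1:55088056-55088084 (+ strand): ccgttctaGAACCTTCCGGAAggccccgc

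A match is a description of letters and not a measured site. The whole windows of Calr, the ER-class gene with both a match and a changed level, and of Hspe1, whose window overlaps that of Hspd1, are given with the matches in capitals, on the strand of the gene.
Calr window chr8:84846882-84847181 (- strand): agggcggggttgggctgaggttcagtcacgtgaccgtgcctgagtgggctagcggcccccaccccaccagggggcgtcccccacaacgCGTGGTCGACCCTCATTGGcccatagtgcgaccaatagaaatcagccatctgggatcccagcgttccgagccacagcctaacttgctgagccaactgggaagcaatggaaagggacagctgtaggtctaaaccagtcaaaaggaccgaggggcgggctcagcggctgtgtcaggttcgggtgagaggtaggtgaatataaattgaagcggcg
Hspe1 window chr1:55087898-55088197 (+ strand): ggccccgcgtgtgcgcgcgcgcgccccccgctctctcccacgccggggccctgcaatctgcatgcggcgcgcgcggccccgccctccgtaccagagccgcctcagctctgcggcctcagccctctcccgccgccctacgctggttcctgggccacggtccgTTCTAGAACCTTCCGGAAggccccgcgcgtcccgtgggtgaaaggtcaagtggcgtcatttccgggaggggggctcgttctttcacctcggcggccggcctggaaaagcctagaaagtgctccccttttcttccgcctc

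Total counts ran from 16548648 to 18401060 per library. Levels are given as CPM, counts scaled to a common library total, after TMM scaling of library sizes, and a gene is called changed where the edgeR quasi-likelihood test gave an adjusted p under 0.05 over the 13329 genes tested. Of the members, 33 were tested, and Hspa1a, with 0 to 2 counts per library, failed the filter on low counts. Dpep2 itself had 22.4 and 17.9 CPM in the shDpep2.968 libraries, 24.9 and 19.5 CPM in the shDpep2.759 libraries, and 55.6, 60.3 and 52.1 CPM in the shNT libraries, a log2 fold change of -1.41 averaged over both hairpins (adjusted p = 8.07e-05). All 8 macrophage markers were detected. They summed to 14700 to 14780 CPM with shDpep2.968 and 16640 to 20180 CPM with shDpep2.759, against 14200 to 15580 CPM with shNT. Epithelial markers summed to at most 0.174 CPM in any library. Of the 5 neutrophil markers only 2 were detected, and Ly6g was at 0. The 5 summed to 34.05 to 50.17 CPM with shDpep2.968 and 99.9 to 237 CPM with shDpep2.759, against 17.3 to 33.7 CPM with shNT. Of the 6 fibroblast markers 4 were detected, and Col1a2 was at 0. The 6 summed to 2.20 to 2.42 CPM with shDpep2.968 and 3.54 to 3.69 CPM with shDpep2.759, against 0.786 to 1.86 CPM with shNT. Their part in the members' values was not tested. In bulk RNA, a changed share of cells and a changed amount of RNA per cell cannot be told apart.

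Per kilobase of the longest coding transcript, the members covered a wide range of levels with shNT. Hsp90ab1, the constitutive cytosolic HSP90, was first at 1059 CPM per kilobase, followed by Hspa8, the constitutive HSP70, at 702, Calr (calreticulin) at 662, Hsp90b1 (the ER HSP90) at 538, Hspa5 at 521 and Hsp90aa1, the inducible HSP90, at 370 CPM per kilobase. As counted, Hspa8 and Calr did not differ beyond the spread of their libraries, and neither did Hsp90b1 and Hspa5. Hspa8 shares much of its sequence with the gene model Gm15459. In the shNT libraries Gm15459 had 24440, 24308 and 22314 counts, beside 31182, 30494 and 26664 for Hspa8. How reads were divided between the pair is uncertain, so the level of Hspa8, its rank and its comparison with Calr are uncertain too. The lowest were Dnajb9, an ER J protein, at 6.44 CPM per kilobase, and the inducible HSP70 genes Hspa1b at 2.70 and Hspa1a at 0.0197 CPM per kilobase. Summed over the class, the 19 ER genes made up 11710 ± 792 CPM with shDpep2.968 and 11100 ± 42.4 CPM with shDpep2.759 (SD, n = 2 each), against 10330 ± 590 CPM with shNT (n = 3). The 14 tested heat shock genes summed to 9111 ± 1031 CPM with shDpep2.968 and 7616 ± 572 CPM with shDpep2.759, against 7426 ± 317 CPM with shNT.

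The first comparison asked which chaperone genes changed with both Dpep2 hairpins, averaged and compared with shNT. The averaged and single comparisons share the shNT libraries. Dnajb9 and Calr rose 1.51-fold and 1.30-fold, and Edem1, a mannosidase-like protein that marks misfolded glycoproteins for degradation, fell to 0.768 of the shNT level. These were 3 of 19 ER genes, or 15.8%, while 0 of 14 tested heat shock genes were called. Among all tested genes 3.44% were called higher and 4.15% lower, 7.59% in all, beside 9.09% of the 33 tested members, a share near the background. By unadjusted p under 0.05, 3 ER genes were higher and 1 lower, 21.1% of the class, and 6 heat shock genes were higher and 0 lower, 42.9% of the class, beside 10.4% of all tested genes higher and 12.5% lower. The ER share is near that background. DESeq2 on the same genes called 5 members, adding Hspa8 and Hsph1, or 15.2%, beside 8.75% of all genes. The count rested on single libraries. The 3 calls were lost without either shDpep2.968 library. Only that of Calr held without shDpep2.759 replicate 2, and all 3 held without shDpep2.759 replicate 1. Without shNT replicate 2 or 3 the count was 0, beside 2.69% and 2.43% of all tested genes. Without shNT replicate 1 it was 1 (Dnajb9), beside 7.92%. With a correction for GC content and transcript length, 9 members were called, 7 higher and 2 lower, beside 17% of all genes, in place of 2 higher and 1 lower.

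**Figure D1:**
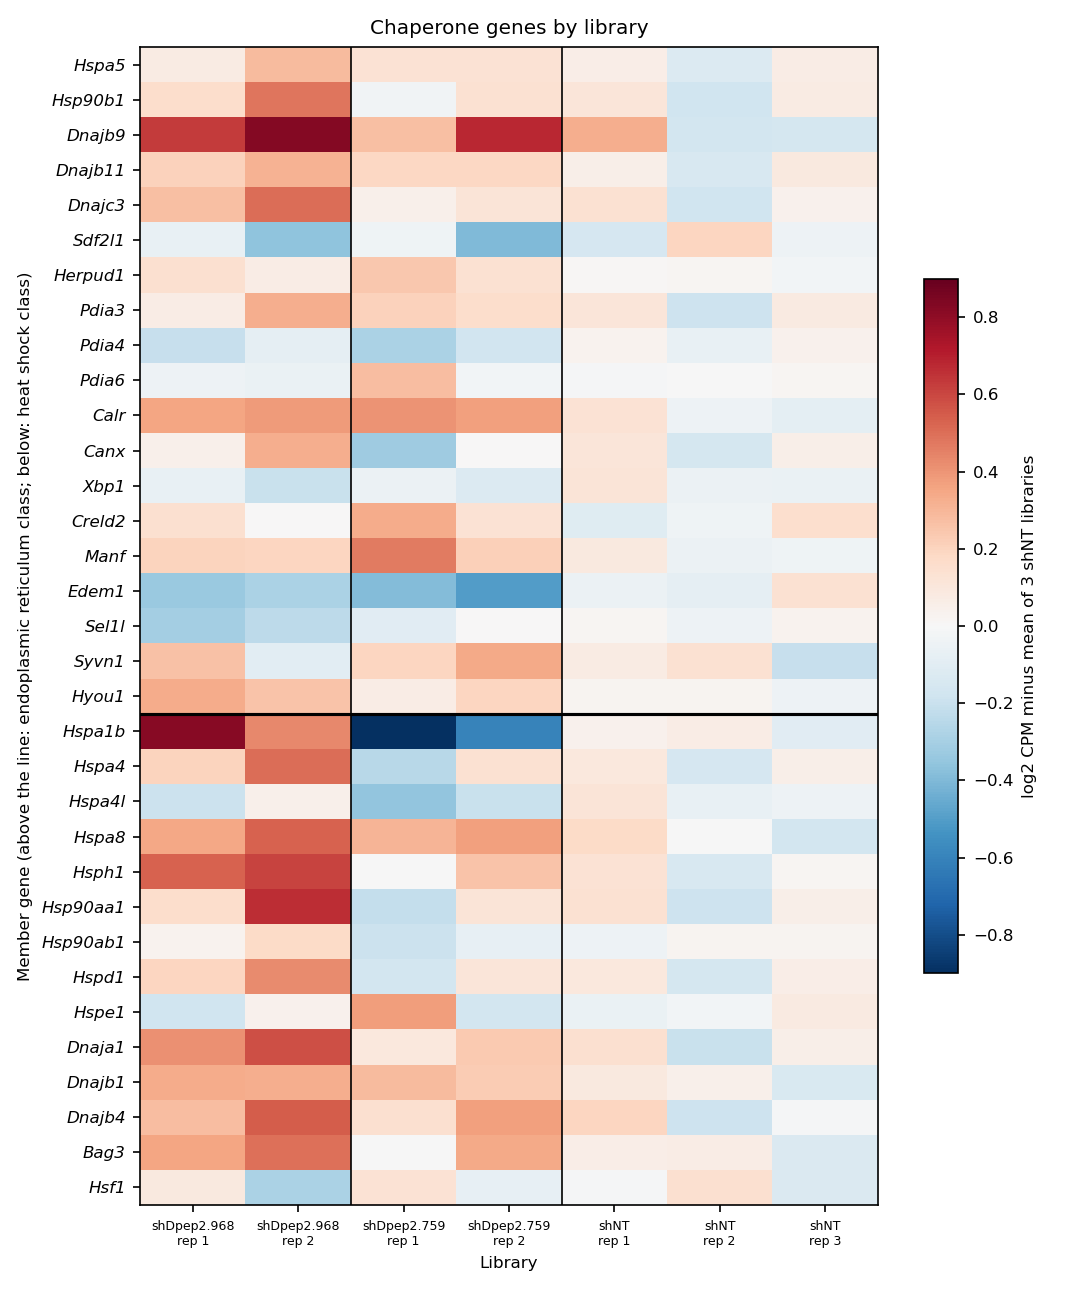
Level of the 33 tested members (rows) in each of the 7 libraries (columns), as log2 CPM minus the mean log2 CPM of the 3 shNT libraries, with the colour scale ending at 0.9 in either direction. The Dnajb9 and Calr rows are red in all 4 hairpin libraries and the Edem1 row is blue, while 12 of the 14 heat shock rows are higher with shDpep2.968 than with shDpep2.759, and Hspa1b is red with shDpep2.968 and blue with shDpep2.759.

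Calr, the soluble lectin chaperone that holds calcium in the ER, had 1850 and 1879 CPM in the shDpep2.968 libraries, 1913 and 1864 CPM in the shDpep2.759 libraries, and 1581, 1401 and 1357 CPM in the shNT libraries. All 4 hairpin libraries lay above all 3 shNT libraries, and the hairpins overlapped each other. The averaged log2 fold change was 0.38 (SE 0.11, 95% interval 0.15 to 0.61, adjusted p = 0.0493). With shDpep2.968 alone it was 0.37 (adjusted p = 0.105) and with shDpep2.759 alone 0.38 (adjusted p = 0.103). The averaged call did not hold without replicate 1 (adjusted p = 0.0938) or 2 (0.13) of shDpep2.968, nor without replicate 1 (0.0509), 2 (0.234) or 3 (0.249) of shNT.

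Dnajb9, an ER J protein (ERdj4) that works with the Hspa5 product, had 24.2 and 27.8 CPM in the shDpep2.968 libraries, 18.9 and 25.1 CPM in the shDpep2.759 libraries, and 19.6, 13.92 and 14.03 CPM in the shNT libraries. Replicate 1 of shDpep2.759 lay below replicate 1 of shNT, so the groups overlapped. The averaged log2 fold change was 0.60 (SE 0.16, 95% interval 0.26 to 0.93, adjusted p = 0.0357), from 0.72 with shDpep2.968 (adjusted p = 0.039) and 0.47 with shDpep2.759 (adjusted p = 0.17). Without single libraries the averaged adjusted p was 0.0553 and 0.119 with replicate 1 or 2 of shDpep2.968 left out, 0.0706 with replicate 2 of shDpep2.759 left out, and 0.196 and 0.211 with replicate 2 or 3 of shNT left out, none of them under the threshold. The shDpep2.968 call did not hold without shDpep2.968 replicate 1 (adjusted p = 0.0819) or 2 (0.325), nor without shNT replicate 2 (0.171) or 3 (0.177). Of its 31-base stretches, 10.8% also occur in another gene, Gm6568, which had 0 to 3 counts.

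Edem1 had 338.6 and 350.1 CPM in the shDpep2.968 libraries, 325.7 and 301.2 CPM in the shDpep2.759 libraries, and 412.1, 403.5 and 468.6 CPM in the shNT libraries. All 4 hairpin libraries lay below all 3 shNT libraries. The averaged log2 fold change was -0.38 (SE 0.10, 95% interval -0.61 to -0.16, adjusted p = 0.0414), with -0.31 for shDpep2.968 (adjusted p = 0.158) and -0.45 for shDpep2.759 (adjusted p = 0.0619). The averaged call did not hold without replicate 1 (adjusted p = 0.0655), 2 (0.101) or 3 (0.228) of shNT, nor without replicate 1 (0.0965) or 2 (0.103) of shDpep2.968 or replicate 2 (0.064) of shDpep2.759. Edem1 thus fell in the comparison in which Calr and Dnajb9 rose.

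**Figure D2:**
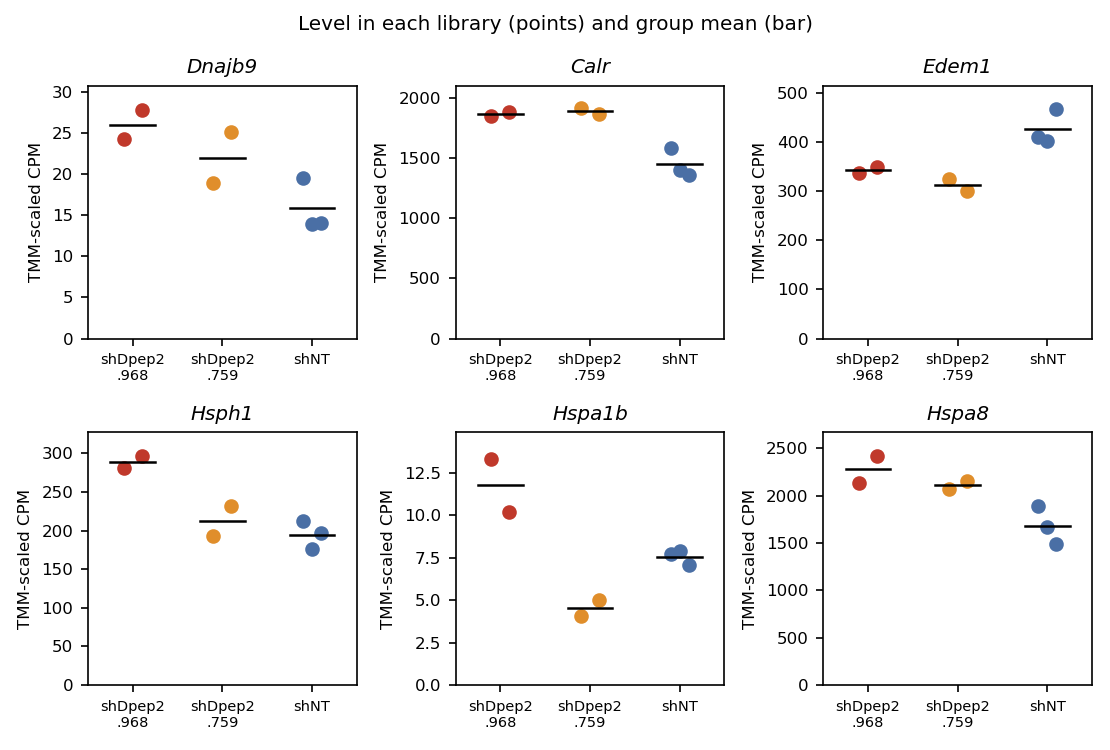
TMM-scaled CPM (vertical axis, starting at 0) of 6 members in each library, as points by group, with the group mean as a bar. Calr and Hspa8 points of both hairpins lie above the shNT points and Edem1 points below them, Hsph1 is raised with shDpep2.968, and for Hspa1b the 3 groups separate, with shDpep2.968 above shNT and shDpep2.759 below it.

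Hspa5 and Hsp90b1, the HSP70 and HSP90 of the ER, did not pass the test in any of the 4 comparisons. Hspa5, the usual readout of the unfolded protein response, had 2009 and 2326 CPM in the shDpep2.968 libraries, 2084 and 2084 CPM in the shDpep2.759 libraries, and 1985, 1753 and 1996 CPM in the shNT libraries. Every hairpin library lay above every shNT library, yet the closest values, 2009 and 1996 CPM, nearly met. The averaged log2 fold change was 0.15 (95% interval -0.08 to 0.39, adjusted p = 0.438), which leaves room for up to a 1.31-fold rise. Hsp90b1 had 1690 and 2115 CPM in the shDpep2.968 libraries, 1483 and 1665 CPM in the shDpep2.759 libraries, and 1633, 1334 and 1592 CPM in the shNT libraries. The groups overlapped, and shDpep2.968 replicate 2 stood apart as the highest library (averaged log2 fold change 0.19, adjusted p = 0.396).

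Xbp1, whose spliced messenger RNA encodes a transcription factor of the response, had 152.7 and 139.2 CPM in the shDpep2.968 libraries, 154.6 and 147.0 CPM in the shDpep2.759 libraries, and 173.7, 154.5 and 153.4 CPM in the shNT libraries. The groups overlapped, and the averaged log2 fold change was -0.11 (95% interval -0.33 to 0.10, adjusted p = 0.533). Counts per gene do not separate its spliced from its unspliced form.

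Among the members that are partners of Hspa5, no gene other than Dnajb9 was called in any of the 4 comparisons. Averaged log2 fold changes were 0.22 for the J protein Dnajb11 and 0.23 for the J protein Dnajc3, 0.21 for the nucleotide exchange factor Hyou1 and -0.21 for Sdf2l1, which binds Dnajb11. Dnajb11 and Hyou1 were higher in all 4 hairpin libraries than in any shNT library. Sdf2l1 had 224.4 and 182.5 CPM in the shDpep2.968 libraries, 228.6 and 178.4 CPM in the shDpep2.759 libraries, and 211.1, 268.3 and 227.6 CPM in the shNT libraries. The groups overlapped, and the replicates of each hairpin lay further apart than the means of the 2 hairpins.

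The disulfide isomerases differed in direction without a call. Pdia4 was lower in all 4 hairpin libraries, with 355.5 and 386.5 CPM in the shDpep2.968 libraries, 336.1 and 363.7 CPM in the shDpep2.759 libraries, and 418.5, 390.7 and 420.3 CPM in the shNT libraries (averaged log2 fold change -0.19, adjusted p = 0.295). Pdia3 had 0.19 (adjusted p = 0.371) and Pdia6 0.04 (adjusted p = 0.862). Calnexin, the membrane-bound partner of calreticulin encoded by Canx, had 0.02 averaged, from 0.19 with shDpep2.968 and -0.16 with shDpep2.759 (difference between hairpins 0.35, 95% interval -0.01 to 0.70, adjusted p = 0.345).

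The secreted or resident ER proteins Manf and Creld2 had averaged log2 fold changes of 0.27 (adjusted p = 0.144) and 0.15 (adjusted p = 0.438). Manf, which binds Hspa5, had 262.8 and 261.3 CPM in the shDpep2.968 libraries, 315.9 and 265.2 CPM in the shDpep2.759 libraries, and 243.6, 220.8 and 222.5 CPM in the shNT libraries, without overlap. Of the degradation complex, Herpud1 had 0.15 and lay without overlap above shNT, the ubiquitin ligase Syvn1 had 0.17 and its adaptor Sel1l -0.16, none of them called (adjusted p from 0.346 to 0.432). The 10 ER genes with an ERSE or ERSE-II match ran from 0.02 (Canx) to 0.38 (Calr) in averaged log2 fold change, and Calr was the only one of them called in the averaged comparison. Dnajb9 and Edem1 had a window with no match to any of the 4 motifs.

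Across both classes, 10 of 33 tested members had no overlap between the 4 hairpin libraries and the 3 shNT libraries. In the ER class Hspa5, Dnajb11, Herpud1, Calr, Manf and Hyou1 were higher, and Pdia4 and Edem1 were lower. In the heat shock class Hspa8 and Dnajb1 were higher. Of all tested genes 9.03% were higher and 9.51% lower by that rule. Without shDpep2.759 replicate 1, which makes the rule easier to meet for every gene, 16 members were higher and 4 lower, beside 14.6% of all genes higher and 16.3% lower.

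With shDpep2.968 compared with shNT, 11 of 14 tested heat shock genes had a positive log2 fold change, and 1 was called. Hsph1, an HSP110-type nucleotide exchange factor for HSP70, rose 1.48-fold, and Dnajb9 rose 1.64-fold. They were the 2 members called in this comparison, 6.06% of 33, beside 2.29% of all tested genes higher and 2.96% lower, 5.25% in all. By unadjusted p under 0.05, 10 of 14 heat shock genes were higher and 0 lower, or 71.4%, beside 10.6% of all tested genes higher and 12.5% lower, and 5 of 19 ER genes were higher and 2 lower. Both calls were lost without either shDpep2.968 library. Without shNT replicate 2 or 3, 0 members were called, beside 1.65% and 1.44% of all tested genes. With both shDpep2.759 libraries out of the fit, 6 members (18.2%) were called, beside 10.3% of all tested genes.

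Hsph1 had 280.5 and 296.8 CPM in the shDpep2.968 libraries, 193.4 and 232.3 CPM in the shDpep2.759 libraries, and 212.4, 175.9 and 196.4 CPM in the shNT libraries. Both shDpep2.968 libraries lay above the other 5 libraries, while shDpep2.759 and shNT overlapped. Its log2 fold change with shDpep2.968 was 0.57 (SE 0.13, 95% interval 0.29 to 0.85, adjusted p = 0.0261), against 0.13 with shDpep2.759 (95% interval -0.16 to 0.41, adjusted p = 0.652). The difference between the hairpins was 0.44 (95% interval 0.13 to 0.75, adjusted p = 0.185) and was not called. The shDpep2.968 call did not hold without replicate 1 (adjusted p = 0.0739) or 2 (0.235) of shDpep2.968, nor without replicate 2 (0.149) or 3 (0.118) of shNT. Hsph1 had an HSE match and no sequence of 31 bases shared with another gene.

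**Figure D3:**
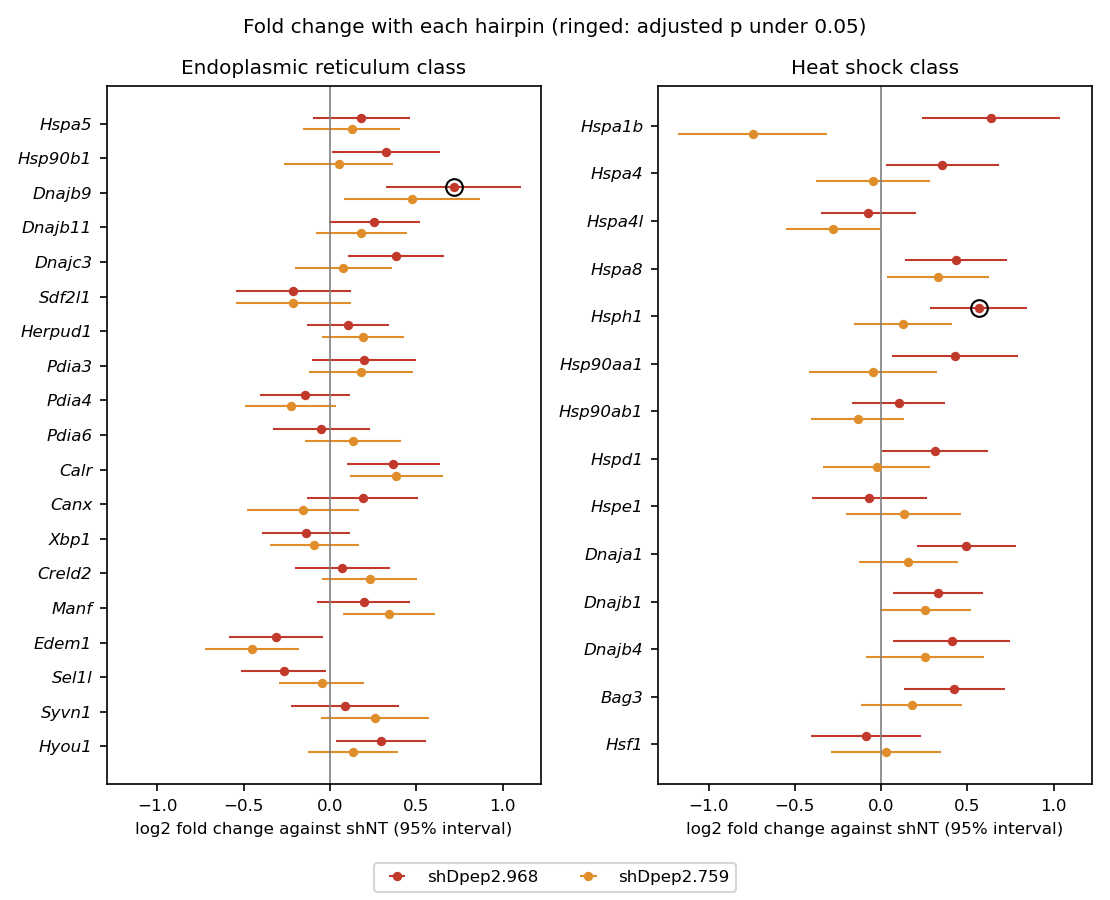
Log2 fold change against shNT (horizontal axis) with its 95% interval for each tested member, for shDpep2.968 and shDpep2.759, with the ER class on the left, the heat shock class on the right and calls ringed. In the heat shock class the shDpep2.968 points lie right of zero for 11 of 14 genes and the shDpep2.759 points for 8. Dnajb9 and Hsph1, both with shDpep2.968, are the ringed points.

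Hspa8, the constitutive HSP70 that folds new proteins in the cytosol, had 2128 and 2421 CPM in the shDpep2.968 libraries, 2065 and 2157 CPM in the shDpep2.759 libraries, and 1884, 1671 and 1490 CPM in the shNT libraries. All hairpin libraries lay above all shNT libraries, and the averaged log2 fold change of 0.38 did not pass the test (SE 0.12, 95% interval 0.13 to 0.63, adjusted p = 0.0645). It passed under DESeq2, without a low-count filter, with the GC and length correction and without shDpep2.759 replicate 1. Of its 31-base stretches 71.6% also occur in other genes, 68.9% in the gene model Gm15459, which itself had 22314 to 31775 counts per library and a log2 fold change of 0.33. How reads were divided between the pair is uncertain, and the sum of both gave 0.36 (adjusted p = 0.0734).

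Hsp90aa1 had 1352 and 1916 CPM in the shDpep2.968 libraries, 1042 and 1313 CPM in the shDpep2.759 libraries, and 1329, 1064 and 1252 CPM in the shNT libraries. The shDpep2.968 replicates lay further from each other than replicate 1 lay from any shNT library, and the log2 fold change with this hairpin was 0.43 (95% interval 0.06 to 0.79, adjusted p = 0.156). Hsp90ab1 had 2723 and 3001 CPM in the shDpep2.968 libraries, 2332 and 2531 CPM in the shDpep2.759 libraries, and 2583, 2712 and 2710 CPM in the shNT libraries. Its shDpep2.968 libraries were the highest and its shDpep2.759 libraries the lowest, with a difference between hairpins of 0.24 on the log2 scale (95% interval -0.06 to 0.53, adjusted p = 0.435). Of the 31-base stretches of Hsp90aa1 54.0%, and of Hsp90ab1 15.5%, also occur in other genes.

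Hspd1 had 789.8 and 927.8 CPM in the shDpep2.968 libraries, 614.1 and 745.4 CPM in the shDpep2.759 libraries, and 737.8, 618.6 and 718.4 CPM in the shNT libraries. Hspe1 had 133.6 and 155.2 CPM in the shDpep2.968 libraries, 196.7 and 134.7 CPM in the shDpep2.759 libraries, and 145.1, 149.0 and 160.0 CPM in the shNT libraries. The promoter windows of the pair overlap. The log2 fold changes of Hspd1 were 0.31 for shDpep2.968 and -0.02 for shDpep2.759. Those of Hspe1 were -0.07 for shDpep2.968 and 0.13 for shDpep2.759, and none was called. With the GC and length correction Hspe1 had 0.061 and Hspd1 0.26 with shDpep2.968, so that the sign of Hspe1 with this hairpin turned. The high Hspe1 mean with shDpep2.759 came from replicate 1 alone. Of their 31-base stretches, 50.1% for Hspd1 and 48.1% for Hspe1 also occur in other genes, so both levels are uncertain.

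The J proteins and Bag3, an HSP70 cochaperone linked to autophagy, also had positive log2 fold changes with shDpep2.968. Dnaja1 had a log2 fold change of 0.49 (95% interval 0.21 to 0.78, adjusted p = 0.0501), at 268.6 and 302.1 CPM with shDpep2.968, against 223.0, 175.8 and 209.4 CPM with shNT. Bag3 had 0.42 (adjusted p = 0.0867), Dnajb4 0.41 (adjusted p = 0.144) and Dnajb1 0.33 (adjusted p = 0.131). With shDpep2.759 the same 4 genes had log2 fold changes of 0.16 to 0.26, with adjusted p from 0.274 to 0.567. Hspa4, an HSP110-type factor like Hsph1, had 0.36 for shDpep2.968 and -0.05 for shDpep2.759, and Hspa4l of the same family had -0.07 with shDpep2.968 and -0.28 with shDpep2.759.

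Hsf1, the transcription factor of the heat shock response, had 43.9 and 33.9 CPM in the shDpep2.968 libraries, 45.1 and 39.2 CPM in the shDpep2.759 libraries, and 40.9, 45.5 and 37.7 CPM in the shNT libraries. The groups overlapped fully (averaged log2 fold change -0.03, 95% interval -0.30 to 0.24, adjusted p = 0.917). Messenger RNA levels do not measure the activity of the protein.

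With shDpep2.759 no member was called, beside 2.72% of all tested genes higher and 2% lower. By unadjusted p under 0.05, 3 ER genes were higher and 1 lower, or 21.1%, and 1 heat shock gene was higher and 2 lower, or 21.4%. Both shares are near the background of 9.65% of all tested genes higher and 9.67% lower. DESeq2 called 2 members, Calr and Edem1, or 6.06%, beside 5.98% of all genes. The smallest adjusted p-values were 0.0538 for Hspa1b and 0.0619 for Edem1. Without shNT replicate 1, 2 or 3, 0 members were called, beside 4.94%, 2.26% and 1.91% of all tested genes.

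The 2 hairpins differed from each other in 1 member. Hspa1b, an inducible cytosolic HSP70, had 13.3 and 10.2 CPM in the shDpep2.968 libraries, 4.04 and 4.98 CPM in the shDpep2.759 libraries, and 7.74, 7.89 and 7.04 CPM in the shNT libraries. No library of any group overlapped another group, and shNT lay between the hairpins. The log2 difference, shDpep2.968 minus shDpep2.759, was 1.38 (SE 0.21, 95% interval 0.92 to 1.84, adjusted p = 0.0141), a 2.60-fold difference. Against shNT, Hspa1b had 0.64 with shDpep2.968 (adjusted p = 0.0642) and -0.74 with shDpep2.759 (adjusted p = 0.0538), neither called, and the averaged value was -0.05. Dpep2 was lower than in any shNT library in all 4 of these hairpin libraries. The Hspa1b call did not hold without shDpep2.968 replicate 1, shDpep2.968 replicate 2 or shDpep2.759 replicate 1, each leaving 1 library in that hairpin group. Over the alternative settings and left-out libraries the log2 difference ran from 1.19 to 1.56.

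The summed neutrophil, macrophage and fibroblast markers also separated the hairpins, while the lymphocyte and epithelial sums overlapped. The neutrophil sum, with 2 of 5 markers detected, stood at 34.05 to 50.17 CPM with shDpep2.968 and 99.9 to 237 CPM with shDpep2.759. The macrophage sum stood at 14700 to 14780 CPM with shDpep2.968 and 16640 to 20180 CPM with shDpep2.759. The part of these marker sets in the Hspa1b difference was not tested. Between the hairpins 0.255% of all tested genes were called higher and 0.585% lower. Of the Hspa1b 31-base stretches 68.0% also occur in other genes, nearly all in its neighbour and near-identical copy Hspa1a. Hspa1a had 0 to 2 counts per library, against 72 to 230 counts for Hspa1b, and summing them left the difference at 1.36 (adjusted p = 0.0161). The level itself, under 14 CPM in every library, was among the lowest of the members. By unadjusted p under 0.05, 5 heat shock genes and 1 ER gene were higher with shDpep2.968 than with shDpep2.759, 35.7% and 5.26% of their classes, and 0 were lower, beside 6.73% of all tested genes higher and 8.29% lower.

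The class medians put these values side by side. The median averaged log2 fold change was 0.15 in the ER class and 0.17 in the heat shock class, beside 0.00253 for all tested genes. With shDpep2.968 the medians were 0.18 for ER genes, 0.38 for heat shock genes and -0.00415 for all genes. With shDpep2.759 they were 0.13 for ER genes, 0.08 for heat shock genes and 0.00330 for all genes. Between the hairpins they were 0.02 for ER genes and 0.24 for heat shock genes, beside -0.01 for all genes. Single libraries moved both medians. Without shNT replicate 2 the ER medians were 0.09 averaged, 0.11 with shDpep2.968 and 0.07 with shDpep2.759. Between hairpins the ER median was 0.13 when shDpep2.968 replicate 1 was left out. The averaged heat shock median was 0.26 when replicate 1 of shDpep2.968 was left out and 0.08 when replicate 2 was, and it was 0.08 without shNT replicate 2. With shDpep2.968 the heat shock median was 0.23 without replicate 2 of that hairpin. With shDpep2.759 it was 0.12 without replicate 1 and -0.02 without replicate 2 of that hairpin, and 0.04 and 0.05 without shNT replicate 2 or 3. Between the hairpins it was 0.15 without shDpep2.759 replicate 1.

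By library, the heat shock median stood 0.24 and 0.46 above the shNT mean with shDpep2.968 and at -0.01 and 0.13 with shDpep2.759, against 0.10, -0.04 and 0.00211 with shNT. The shDpep2.968 libraries were the highest, and those of shDpep2.759 lay among or just above shNT. The ER median stood at 0.14 and 0.19 with shDpep2.968 and at 0.13 and 0.13 with shDpep2.759, against 0.06, -0.05 and 0.03 with shNT, and the hairpin libraries did not overlap shNT. Members are not replicates, the genes were chosen with results known, and no test was made of a class.

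**Figure D4:**
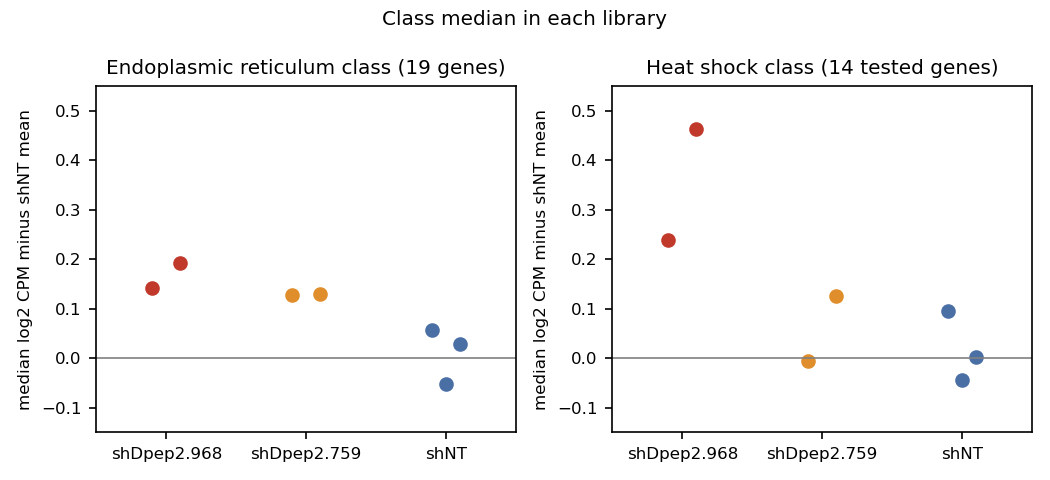
Median over the genes of a class of log2 CPM minus the shNT mean (vertical axis), 1 point per library, by group, for the ER class and the heat shock class. The ER points of both hairpins lie between 0.13 and 0.19, above shNT, while the heat shock points are high with shDpep2.968, at 0.24 and 0.46, and near shNT with shDpep2.759.

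In the pairs compared, libraries of the same group differed from each other in these genes by GC content. Across the 33 members, the difference between shDpep2.968 replicates 2 and 1 had a Spearman correlation of -0.81 with transcript GC content, and over all 12757 genes with a value it was -0.517. For shDpep2.759 replicates 2 and 1 the correlation was -0.423 over members and -0.344 over all genes. For shNT only replicates 3 and 2 were compared, at -0.723 over members and -0.254 over all genes. These are descriptions over genes that share libraries, with no test. Hsp90aa1, with 43.7% GC, was 0.50 higher on the log2 scale in replicate 2 of shDpep2.968 than in replicate 1, and Hsf1, with 57.8% GC, was 0.37 lower. The correlation of the members' log2 fold changes with GC content was -0.201 averaged, -0.251 for shDpep2.968, 0.0889 for shDpep2.759 and -0.451 for the difference between the hairpins. For that difference the correlation with transcript length was 0.505 over the members, against 0.173 over all genes.

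After the GC and length correction, the correlations of the replicate differences with GC content over the members did not vanish. They were -0.332 for shDpep2.968 and 0.235 for shDpep2.759, against -0.81 and -0.423 before it. For shNT replicates 3 and 2 it was -0.5, against -0.723, so a GC trend remained there. Dnajb9, Calr and Edem1 were called in the averaged comparison with the correction, at 0.47 (adjusted p = 0.00822), 0.38 (0.0104) and -0.41 (0.00797). Manf (0.29), Hyou1 (0.29), Hspa8 (0.41), Hsph1 (0.30) and Dnajb1 (0.34) were then also higher and Hspa4l (-0.31) lower. With shDpep2.968 11 members were called, 33.3% beside 13.7% of all genes, and with shDpep2.759 5 were called, 15.2% beside 13.3%. The difference of Hspa1b between hairpins was 1.46 (adjusted p = 0.00128), and that of Hsph1, 0.42, also passed (adjusted p = 0.0464). The correction raised the count over all genes as well, so the members' counts stand beside its own background.

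**Figure D5:**
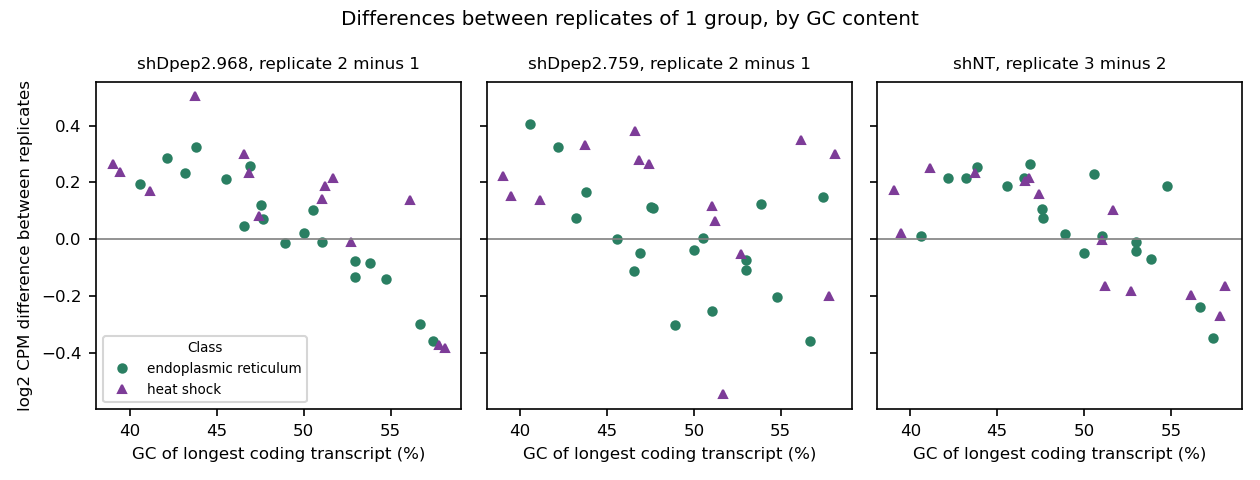
Difference in log2 CPM between replicates of 1 group (vertical axis) against GC content of the longest coding transcript in percent (horizontal axis), 1 point per member. Panels show shDpep2.968 and shDpep2.759 (replicate 2 minus 1) and shNT (replicate 3 minus 2). Points tend to fall from left to right in each panel, with Spearman correlations of -0.81, -0.423 and -0.723.

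Genes around the members were counted from 8 further lists. In the averaged comparison edgeR called 3.44% of all tested genes higher and 4.15% lower, and DESeq2 called 8.75% in either direction. The list counts stand beside these shares and were not tested. Of 14 tested genes of the ATF4 and CHOP arm, which answers amino acid shortage as well as ER stress, 5 fell in the averaged comparison and 0 rose. Trib3, a pseudokinase target of that arm, had 17.4 and 16.4 CPM in the shDpep2.968 libraries, 18.6 and 12.5 CPM in the shDpep2.759 libraries, and 26.1, 42.1 and 45.2 CPM in the shNT libraries (log2 fold change -1.22, adjusted p = 0.00425). Asns, asparagine synthetase, had -0.65 (adjusted p = 0.00394) and Chac1, a glutathione-degrading enzyme, -1.04 (adjusted p = 0.0244). Atf4 and Ddit4, named after their values were seen, were the others. The median over that list was -0.28.

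Of 23 tested other ER degradation genes, 2 fell and 0 rose, namely the cytosolic glycanase Ngly1 (-0.85, adjusted p = 0.00185) and Edem2, a relative of Edem1 (-0.49, adjusted p = 0.0121). Edem2 had 59.0 and 56.4 CPM in the shDpep2.968 libraries, 68.0 and 55.1 CPM in the shDpep2.759 libraries, and 80.3, 88.7 and 82.8 CPM in the shNT libraries, without overlap. Of 29 ER oxidoreductases and other ER folding genes, 1 fell, Sil1, a nucleotide exchange factor of the Hspa5 product (-0.53, adjusted p = 0.0332), and 0 rose. Sil1 was also called with shDpep2.759 (-0.69, adjusted p = 0.0315), and had -0.36 with shDpep2.968 (adjusted p = 0.202).

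No averaged call was made by edgeR in the 5 remaining lists. Their counts by unadjusted p under 0.05 stand beside 10.4% of all tested genes higher and 12.5% lower. Of 19 sensors and signalling genes of the unfolded protein response, 3 were higher by unadjusted p and 0 lower, with a median log2 fold change of -0.03. With shDpep2.968 2 were higher and 3 lower (median 0.10), and with shDpep2.759 1 was higher and 3 lower (median 0.08). In the averaged comparison DESeq2 called 1. It was Nfyc, a subunit of the NF-Y factor that binds CCAAT boxes (0.49, adjusted p = 0.0664), and the next smallest p was that of the phosphatase regulator Ppp1r15a (0.26, adjusted p = 0.212). Of 32 translocon and glycosylation genes, 2 were higher and 1 lower by unadjusted p, and DESeq2 called Dad1, a subunit of the oligosaccharyltransferase (0.39, edgeR adjusted p = 0.0781), which edgeR called with shDpep2.759 (0.55, adjusted p = 0.0478). Srp54a, of the signal recognition particle, had -0.32 (adjusted p = 0.173).

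Of 27 tested HSP70 and HSP90 cochaperones and small heat shock genes, 1 was higher and 3 were lower by unadjusted p under 0.05, and DESeq2 called 0. Hspb6, a small heat shock protein, had -0.68 (adjusted p = 0.0619) and Hspa14, an HSP70 relative, had -0.25 (adjusted p = 0.175). Of 13 mitochondrial chaperones and proteases, 0 were higher and 2 lower by unadjusted p, and DESeq2 called the protease Lonp1 (-0.38, edgeR adjusted p = 0.0802). Clpb, a disaggregase, had -0.35 (adjusted p = 0.0759). Of 14 genes of the TRiC chaperonin and prefoldin, 0 passed an unadjusted p under 0.05 and DESeq2 called 0, with the chaperonin subunit Cct5 at -0.20 (adjusted p = 0.261) and the prefoldin subunit Pfdn6 at -0.25 (adjusted p = 0.357). Between the hairpins the median of that list was 0.24, as in the heat shock class, and edgeR called 0. By unadjusted p under 0.05, 4 genes were higher and 1 lower, beside 6.73% of all tested genes higher and 8.29% lower. DESeq2 called Pfdn6 there and with shDpep2.968, and Cct5 with shDpep2.759.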

How the data were processed

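The authors deposited 1 table of whole-number counts, with 55417 gene symbols and 7 libraries. Per the labels' protocols, a TIANGEN kit was used for total RNA and the TruSeq Stranded Total RNA kit for libraries, sequenced from both ends over 150 bp. Trim Galore and Salmon appear in the submitters' processing notes without versions, together with the build hg38, although the symbols are mouse. The sources used here do not give the annotation, the strand setting or whether the counts are Salmon estimates that were rounded. A model would then have divided reads of near-identical genes.

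Members were matched by symbol, and members, lists and tests were chosen with earlier results of these data known. Groups follow the hairpin names in the labels. The analysis used edgeR 4.0.16 in R 4.3.3: filterByExpr (13329 genes kept), TMM, a robust quasi-likelihood fit with 1 mean per group over all 7 libraries (4 residual degrees of freedom), and Benjamini-Hochberg adjustment over all tested genes within a comparison, with a threshold of 0.05. The fit was tested on simulated data. DESeq2 1.42.0, limma-voom (limma 3.58.1), other scalings and filters, a replicate block, a fit with no robust estimation, a GC and length correction by per-library splines, 1 group for all hairpin libraries, fits of the compared groups only and each library left out were alternatives. Summing Hspa1a with Hspa1b, and Hspa8 with Gm15459, was chosen after seeing the data.

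Total counts of 16548648 to 18401060 per library and a common biological coefficient of variation of 13.8% set the precision. Within groups, libraries differed beyond sampling noise, at 15.1 to 43.7 chi-square per degree of freedom. GC content, length and shared 31-base stretches came from mouse GENCODE M21 transcripts, with GC and length for 95.7% of tested genes and all tested members. Promoter windows came from RefSeq, GRCm38.p6. All members were described, with values in every library for those called in any comparison, for the others listed in the naming rule (Hspa1a by its range), and for Sdf2l1, Pdia4 and Manf, named after their values were seen. From each further list up to 3 called genes were named by smallest p, or 2 where none was called.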

Additional observations from a re-analysis of the deposited data

Results flagged for a closer look

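The effects of the 2 hairpins on Hspa1b, an inducible HSP70 gene, differed from each other by a test of the difference itself. The log2 difference, shDpep2.968 minus shDpep2.759, was 1.38 (edgeR quasi-likelihood adjusted p = 0.0141), with 13.3 and 10.2 CPM with shDpep2.968 and 4.04 and 4.98 CPM with shDpep2.759. Both shDpep2.968 libraries lay above the 3 shNT libraries, at 7.74, 7.89 and 7.04 CPM, and both shDpep2.759 libraries lay below them. Replicate 2 of shDpep2.968 was 0.38 lower on the log2 scale than replicate 1, which is smaller than the difference between the hairpins. Hspa1b has 58.1% GC, and the difference was 1.46 with the GC and length correction. The call was lost without shDpep2.968 replicate 1 (adjusted p = 0.082), shDpep2.968 replicate 2 (0.0633) or shDpep2.759 replicate 1 (0.0854).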

How the results depend on the processing

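For 41 member fold changes 620 alternatives were run. Of these, 550 kept direction and side of the threshold, 40 lost a call, 12 gained a call and 18 changed sign. Most of the 41 were not called and had no call to lose. The averaged calls of Calr and Edem1 were each lost in 9 of 17 alternatives. That of Dnajb9 was lost in 7 of 17, as was its shDpep2.968 call. Hsph1 with shDpep2.968 lost its call in 5 of 17, and Hspa1b between hairpins in 3 of 18. Shares in brackets are of all genes tested in that setting. In the averaged comparison 3 members were called (7.59%), against 5 with DESeq2 (8.75%) and 1 without robust estimation (6.66%). The GC and length correction gave 9 (17%), and all hairpin libraries as 1 group gave 0 (4.05%). With shDpep2.968 2 were called (5.25%), against 4 without a low-count filter (5.61%), 5 with DESeq2 (7.75%) and 1 with limma-voom (3.79%). There were 1 without robust estimation (4.09%), 11 with the correction (13.7%) and 6 with only the compared groups (10.3%). With shDpep2.759 0 were called (4.73%), against 1 with library size alone (4.79%) and 2 without a filter (4.4%). There were 2 with DESeq2 (5.98%) and 5 with the correction (13.3%). Between hairpins 1 was called (0.84%), against 2 with the correction (4.31%).

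Same-numbered libraries correlated at 0.06 between hairpins and at -0.192 to -0.124 with shNT, so the numbers were not taken to pair samples. With a replicate block 0 members were called averaged, 0 with shDpep2.968, 0 with shDpep2.759 and 1 between hairpins, and calls over all genes were 404, 308, 312 and 130.

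With the GC and length correction 4 averaged log2 fold changes near 0 changed sign, to -0.10 for Canx, 0.10 for Hspa1b, 0.013 for Hsp90ab1 and 0.11 for Hsf1, and Hspa1b was 0.10 with 1 hairpin group. In the single comparisons Hspe1 and Hsf1 turned with shDpep2.968, to 0.061 and 0.11. Between the hairpins Hspa4l turned from 0.20 to -0.02, Dnajb4 from 0.16 to -0.06 and Hspe1 from -0.20 to 0.0072. The differences of Sdf2l1, Pdia3, Calr and Xbp1 between the hairpins also changed sign. The cause was not tested.

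Leaving out an shNT library gave 0 to 1 averaged calls, beside 2.43% to 7.92% of all tested genes. It gave 0 to 3 with shDpep2.968, beside 1.44% to 6.44%, and 1 between hairpins, beside 0.212% to 0.685%. The averaged and shDpep2.968 calls were lost without either shDpep2.968 library. Leaving out shDpep2.759 replicate 1 added averaged calls, and leaving out either shDpep2.759 library added calls with shDpep2.968. Leaving out shDpep2.759 replicate 2 added calls between the hairpins. In each of these settings a larger share of all tested genes was called as well. Leaving out each library gave 11 to 20 members without overlap, beside 21.1% to 31.8% of all tested genes. The ER median ran from 0.090 to 0.18 averaged, 0.11 to 0.21 with shDpep2.968, 0.068 to 0.15 with shDpep2.759 and 0.00286 to 0.13 between hairpins. The heat shock median ran from 0.078 to 0.26 averaged, 0.23 to 0.47 with shDpep2.968, -0.016 to 0.12 with shDpep2.759 and 0.15 to 0.36 between hairpins. Averaged values that changed sign ran from -0.039 to 0.11 for Pdia6, -0.072 to 0.092 for Canx, -0.15 to 0.034 for Hspa1b, -0.053 to 0.020 for Hsp90ab1, -0.12 to 0.15 for Hspe1 and -0.13 to 0.056 for Hsf1. Where a hairpin kept 1 library, that library was assumed to vary like the other groups. At this depth Hspa1a had at most 2 counts in a library and was not tested.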
